A study of Sus scrofa with 24 samples.

Results

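The results concern 8 genes of the pig liver, MPDZ, TNFAIP8L1, COCH, OLFM1, MATN2, PDXP, DNAJC6 and YPEL5, of 13463 genes in the deposited tables. They were picked by symbol because, in these same libraries, the difference between pigs injected with Sustanon and untreated pigs was unlike in uncastrated boars and in castrated boars and sows. Reads per gene in the Sustanon-treated and untreated libraries chose the genes, so those values are given below as a description, without a test. All 8 genes were among the 8754 genes that passed the filter on low counts. COCH passed only through the groups where it was high: 6 of the 24 libraries reached the filter level, and neither Sustanon-treated uncastrated boar was among them.

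Testosterone acts on liver cells through the androgen receptor, a transcription factor that raises some genes and lowers others. An uncastrated boar already makes testosterone in its testes, while a castrated boar and a sow have little of it, so an injection starts from a different hormone level in each. MPDZ encodes a scaffold protein with many PDZ domains that sits at tight junctions between epithelial cells. COCH, MATN2 and OLFM1 encode secreted proteins: cochlin, best known from the inner ear, matrilin 2, an adaptor of the extracellular matrix, and olfactomedin 1, studied mainly in neurons. PDXP encodes a phosphatase that removes the phosphate from the active form of vitamin B6 and from cofilin, a regulator of actin filaments. DNAJC6 encodes auxilin, which works with HSC70 to strip the clathrin coat from vesicles and is best known in neurons. TNFAIP8L1 belongs to a small family of proteins linked to cell death and inflammation, and YPEL5 encodes a yippee-like protein found with the CTLH ubiquitin ligase complex.

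The libraries were made from the poly-A RNA of 24 livers, 1 library for each pig, and the trial asked which genes change after misuse of anabolic steroids. Sustanon, a mixture of testosterone esters, had been injected at 4 mg/kg, and Myodin, an ester of nandrolone, at 5 mg/kg. Each treatment had 8 pigs among these libraries. The paper also lists a further Sustanon-treated and a further untreated uncastrated boar, which have no library here. With Sustanon there were castrated boars 1, 2 and 3, sows 4, 5 and 6, and uncastrated boars 19 and 20. With Myodin there were castrated boars 8 and 9, sows 10, 11 and 12, and uncastrated boars 22, 23 and 24. The untreated pigs were castrated boars 13, 14 and 15, sows 16, 17 and 18, and uncastrated boars 25 and 27. All pigs were hybrids of the same cross. Each treatment group had its own pens and the controls stood in a separate room, so treatment and housing cannot be told apart. Castrated boars and sows are called pigs without testes below.

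Total counts ranged from 9267780 to 14017276 per library. EIF1AY, a gene of the Y chromosome, went against the label in 3 libraries, all of them untreated pigs without testes: castrated boar 15 had 1 count, and sows 16 and 18 had 476 and 434. In the group of untreated pigs without testes, those 3 libraries included, THEM5 and MAPK4 had at most 4 counts each, while every library with testes or Sustanon had at least 28 and 11. Some results that rest on these 3 libraries are therefore given with and without them. The hepatocyte markers ALB, TTR, APOA1 and APOB, 4 of the 6 listed, summed to between 80526 and 200368 CPM (counts of a gene scaled to the size of its library) in every library. In bulk tissue, fewer cells of a type and less RNA per cell cannot be told apart.

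The differences in the Sustanon-treated pigs that chose the genes fell into 2 directions. On the log2 scale of the edgeR fit, MPDZ was higher by 1.37 ± 0.35 (SE, 2 against 2 boars) in Sustanon-treated than in untreated uncastrated boars and lower by 0.76 ± 0.20 (SE, 6 against 6) in pigs without testes. DNAJC6 and YPEL5 lay on the same side as MPDZ, with 3.28 ± 0.69 and 0.69 ± 0.21 in uncastrated boars against -0.43 ± 0.39 and -0.38 ± 0.12 in pigs without testes. The DNAJC6 value in pigs without testes was little larger than its error, and ran from -0.63 without castrated boar 2 to -0.23 without castrated boar 3. The other 5 genes were lower in the treated boars. For COCH the values were -6.40 ± 2.18 in uncastrated boars and 4.45 ± 1.08 in pigs without testes, and for MATN2 they were -1.996 ± 0.607 and 1.26 ± 0.35. PDXP had -0.69 ± 0.41 and 1.28 ± 0.25, and TNFAIP8L1 had -1.57 ± 0.29 and 0.31 ± 0.16.

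OLFM1 differed in size more than in sign, with -1.65 ± 0.42 in uncastrated boars and -0.13 ± 0.23 in pigs without testes. The value in pigs without testes became 0.19 when the 3 libraries with EIF1AY against the label were left out, and 0.010 without castrated boar 15 alone. The other 7 genes had values of opposite sign in this fit. Over all 8754 genes, differentially expressed genes (DEGs, with an adjusted p below 0.05 and a log2 fold change of 1 or more either way) numbered 0 in uncastrated boars (0%, with 931 genes at an unadjusted p under 0.05, 37 DEGs by DESeq2 and 10 by limma) and 177 in pigs without testes (2.02%, and 73 DEGs without those 3 libraries).

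**Figure D1:**
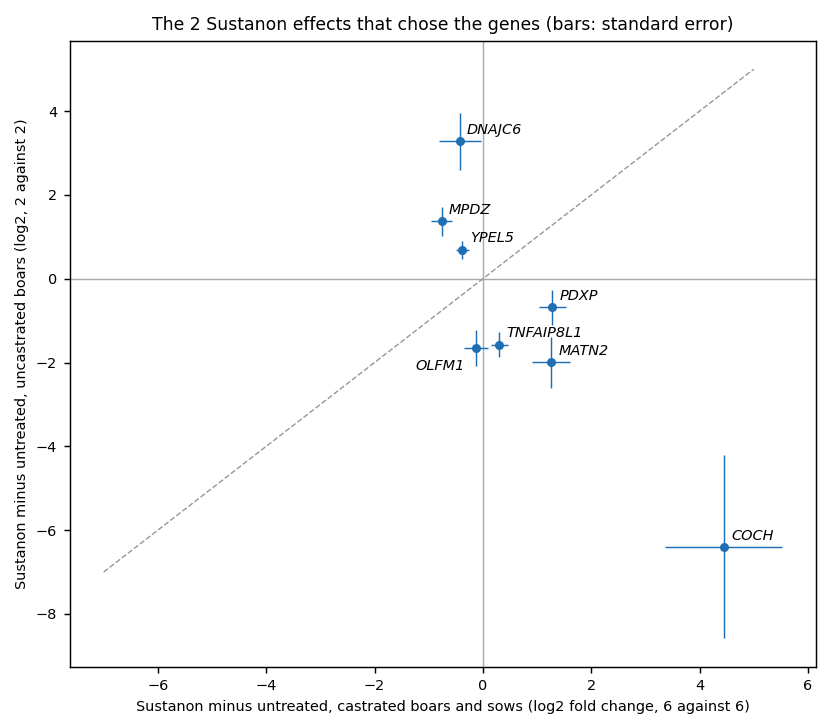
Log2 fold change of Sustanon-treated against untreated pigs, in castrated boars and sows on the horizontal axis (6 against 6) and in uncastrated boars on the vertical axis (2 against 2), with standard errors as bars and equal effects on the dashed line. DNAJC6, MPDZ and YPEL5 lie at the upper left, OLFM1 at the lower left near the vertical 0 line, and the other 4 genes at the lower right, COCH farthest out at 4.45 and -6.40.

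MPDZ (ENSSSCG00000005191, 1:209181441-209351797 in Sscrofa11.1) was the most abundant of the 8 genes per length, with a median of 30.0 TPM over the 24 libraries. Untreated uncastrated boars 25 and 27 had 59.0 and 56.6 CPM. Untreated pigs without testes had between 167 and 224 CPM, with a median of 182. The untreated boars were thus the lowest 2 of all 24 libraries, and the untreated pigs without testes were high. With Sustanon, boars 19 and 20 had 177 and 122 CPM, inside the range of 82.5 to 173 CPM (median 104) in pigs without testes but for boar 19, just above it. With Myodin, boars 22, 23 and 24 had 77.4, 163 and 161 CPM, and pigs 8, 9, 10, 11 and 12 had 76.4, 113, 129, 145 and 161 CPM. Those groups overlapped throughout. By group mean the order was untreated pigs without testes (191 ± 23.6 CPM, SD, n = 6), then Sustanon-treated boars, Myodin-treated boars, and Myodin-treated and Sustanon-treated pigs without testes, each with a range that overlapped that of the group before it, and last, without overlap, the untreated boars (57.8 ± 1.65 CPM, SD, n = 2).

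TNFAIP8L1 (ENSSSCG00000034615, 2:74203753-74220811, median 12.3 TPM) was highest in the untreated boars. The level in untreated boars 25 and 27 was 40.4 and 44.2 CPM, above all other 22 libraries. Sustanon-treated boars 19 and 20 had 12.1 and 16.3 CPM, and untreated pigs without testes had 20.2 to 29.2 CPM with a median of 22.9. The treated boars thus lay below every pig without testes that was untreated or on Sustanon. Pigs without testes had 19.2 to 39.0 CPM (median 27.9) with Sustanon. With Myodin, boars 22, 23 and 24 had 25.4, 17.7 and 15.7 CPM, against 29.4, 28.1, 26.6, 22.02 and 20.8 CPM in pigs 8 to 12. Boar 22 lay within the range of those 5 pigs and boars 23 and 24 lay below it. The means ran from 42.3 ± 2.66 CPM (SD, n = 2) in untreated boars down to 14.2 ± 2.94 CPM (SD, n = 2) in Sustanon-treated boars, and among the 4 groups between them each overlapped the next. The Sustanon-treated boars overlapped only the Myodin-treated boars, next above them.

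COCH (ENSSSCG00000022679, 7:68580124-68595142) was a rare transcript, with a median of 0.10 TPM and 0 counts in 6 of the 24 libraries. Untreated boars 25 and 27 had 17 and 80 counts, and Sustanon-treated boars 19 and 20 had 0 and 1. In pigs without testes, the untreated had between 0 and 6 counts. The Sustanon-treated castrated boars 1, 2 and 3 had 10, 6 and 31 counts, and sows 4, 5 and 6 had 105, 1 and 82. The high libraries were thus boar 27 and sows 4 and 6, and the spread within a group was as large as the level itself. In pooled CPM, the untreated boars had 102 times the level of the Sustanon-treated boars (97 against 1 count, 95% interval from 17.8 to 4061). In pigs without testes, the pooled level with Sustanon was 23.2 times the untreated one (235 against 10 counts, 95% interval from 12.4 to 49.1). These intervals cover counting error only. Castrated boar 15, with EIF1AY against its label, held 6 of the 10 untreated counts. By mean, untreated boars (4.78 ± 4.63 CPM, SD, n = 2) and Sustanon-treated pigs without testes (3.79 ± 4.49 CPM, SD, n = 6) came first and overlapped, and the other 4 groups had 0.05 to 0.41 CPM. The fitted log2 values of COCH rest on such low counts and are not bounds, and on the deposited log2(TPM + 1) scale they were -1.79 in boars and 1.19 in pigs without testes. With a library left out, the fitted values ran from -8.70 to -4.74 in boars and from 3.74 to 5.45 in pigs without testes.

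MATN2 (ENSSSCG00000006082, 4:38744025-38915083, median 2.39 TPM) was high in the same libraries as COCH. Untreated boars 25 and 27 had 10.1 and 31.1 CPM, and Sustanon-treated boars 19 and 20 had 5.56 and 4.71. Sustanon-treated sows 4 and 6 had 23.8 and 17.998 CPM, while sow 5 had 4.88 and castrated boars 1, 2 and 3 had 7.42, 8.32 and 7.84. Untreated pigs without testes had 3.61 to 6.53 CPM, with a median of 4.47. Boar 27 and sows 4 and 6 thus stood apart from the rest, and the Sustanon-treated castrated boars, at 7.86 ± 0.45 CPM (SD, n = 3), also lay above all 3 untreated castrated boars, at 4.33 ± 0.29 CPM (SD, n = 3). Those 3 include castrated boar 15, with EIF1AY against its label, at 4.03 CPM. Without boar 27, the value of Sustanon against untreated boars went from -1.996 to -0.97. With Myodin, MATN2 had 4.07, 3.77 and 6.64 CPM in boars 22, 23 and 24 and 7.30, 6.46, 6.47, 5.36 and 2.54 CPM in pigs 8 to 12. The groups with Myodin overlapped. By mean, untreated boars (20.6 ± 14.9 CPM, SD, n = 2) and Sustanon-treated pigs without testes (11.7 ± 7.46 CPM, SD, n = 6) were highest and overlapped, and the other 4 groups lay between 4.83 and 5.62 CPM.

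OLFM1 (ENSSSCG00000029715, 1:274236241-274261322, median 3.17 TPM) was low in the Sustanon-treated boars alone. Boars 19 and 20 had 1.03 and 1.41 CPM, from 12 and 15 counts, below all other 22 libraries. In untreated boars 25 and 27 the level was 3.98 and 3.72 CPM, within the 2.28 to 5.62 CPM (median 3.91) of untreated pigs without testes. Pigs without testes had 3.09 to 4.62 CPM (median 3.30) with Sustanon. Those 3 groups overlapped. With Myodin, boars 22, 23 and 24 had 3.30, 3.68 and 1.95 CPM, and pigs 8 to 12 had 3.20, 2.70, 5.28, 5.16 and 4.56. Boar 24 was the lowest of these 8, and the other 2 boars lay among the pigs without testes. The Sustanon-treated boars had a mean of 1.22 ± 0.27 CPM (SD, n = 2), and the other 5 groups had means of 2.98 to 4.18 CPM, in an order in which each overlapped the next.

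PDXP (ENSSSCG00000034632, 5:10162642-10169726, median 12.9 TPM) was the only member whose Sustanon-treated pigs without testes did not overlap the untreated ones (3.27% of all genes did not). They had 14.7 to 31.9 CPM with a median of 26.4, and the untreated had 6.02 to 13.8 CPM with a median of 10.004. In untreated boars 25 and 27 PDXP had 27.1 and 33.4 CPM, and Sustanon-treated boars 19 and 20 had 21.9 and 15.6. The untreated boars were thus high, and the treated boars lay inside the range of Sustanon-treated pigs without testes. With Myodin, boars 22, 23 and 24 had 18.7, 14.98 and 12.6 CPM, and pigs 8 to 12 had 11.8, 18.02, 6.90, 12.8 and 15.4. Boar 22 was the highest of these 8, and the groups overlapped. From the untreated boars (30.2 ± 4.49 CPM, SD, n = 2) through Sustanon-treated pigs without testes, Sustanon-treated boars, Myodin-treated boars and Myodin-treated pigs without testes down to untreated pigs without testes (9.94 ± 3.66 CPM, SD, n = 6), each group overlapped the next.

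DNAJC6 (ENSSSCG00000003807, 6:146990115-147161010) was also a rare transcript, with a median of 0.31 TPM and 10.5 counts. Boars 19 and 20 had 67 and 27 counts, which is 5.73 and 2.54 CPM, and all other 22 libraries had at most 15 counts and 1.41 CPM. The Sustanon-treated boars thus stood above every other library. In untreated boars 25 and 27 it had 7 and 2 counts. In pooled CPM, the Sustanon-treated boars had 9.95 times the level of the untreated boars (94 against 9 counts, 95% interval from 5.03 to 22.4, counting error only). The fitted log2 value in boars, 3.28, ran from 2.57 to 4.31 with a library left out. In pigs without testes the level was 0.93 to 1.41 CPM (median 1.04) untreated and 0.25 to 1.40 CPM (median 0.90) with Sustanon. With Myodin it was 0.69, 1.04 and 0.78 CPM in boars 22, 23 and 24, and 0.45, 1.06, 1.19, 0.89 and 1.18 CPM in pigs 8 to 12, and the groups overlapped. The means of the 5 groups other than Sustanon-treated boars were 0.41 to 1.12 CPM. The untreated boars, lowest of these, did not overlap the Myodin-treated boars next above them, and the other 4 groups overlapped. On the deposited log2(TPM + 1) scale, which shrinks low values, the difference between treated and untreated boars was 1.04.

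YPEL5 (ENSSSCG00000008529, 3:109178093-109196643, median 13.5 TPM) spanned 29.6 to 74.3 CPM, the narrowest range of the 8 genes as a ratio. The 2 lowest levels were 32.4 and 29.6 CPM, in untreated boars 25 and 27, below all other 22 libraries. Sustanon-treated boars 19 and 20 had 50.5 and 49.7 CPM. Untreated pigs without testes had 46.4 to 67.4 CPM with a median of 57.7, and Sustanon-treated ones had 36.5 to 50.9 CPM with a median of 44.3. The treated boars lay inside both ranges. With Myodin, boars 22, 23 and 24 had 38.8, 44.8 and 51.2 CPM, and pigs 8 to 12 had 45.7, 54.6, 58.6, 74.3 and 65.0. Boars 22 and 23 lay below those 5 pigs and boar 24 lay among them. The means ran from 59.6 ± 10.8 CPM (SD, n = 5) in Myodin-treated pigs without testes to 31.0 ± 2.03 CPM (SD, n = 2) in untreated boars, and neighbouring groups overlapped except the untreated boars.

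**Figure D2:**
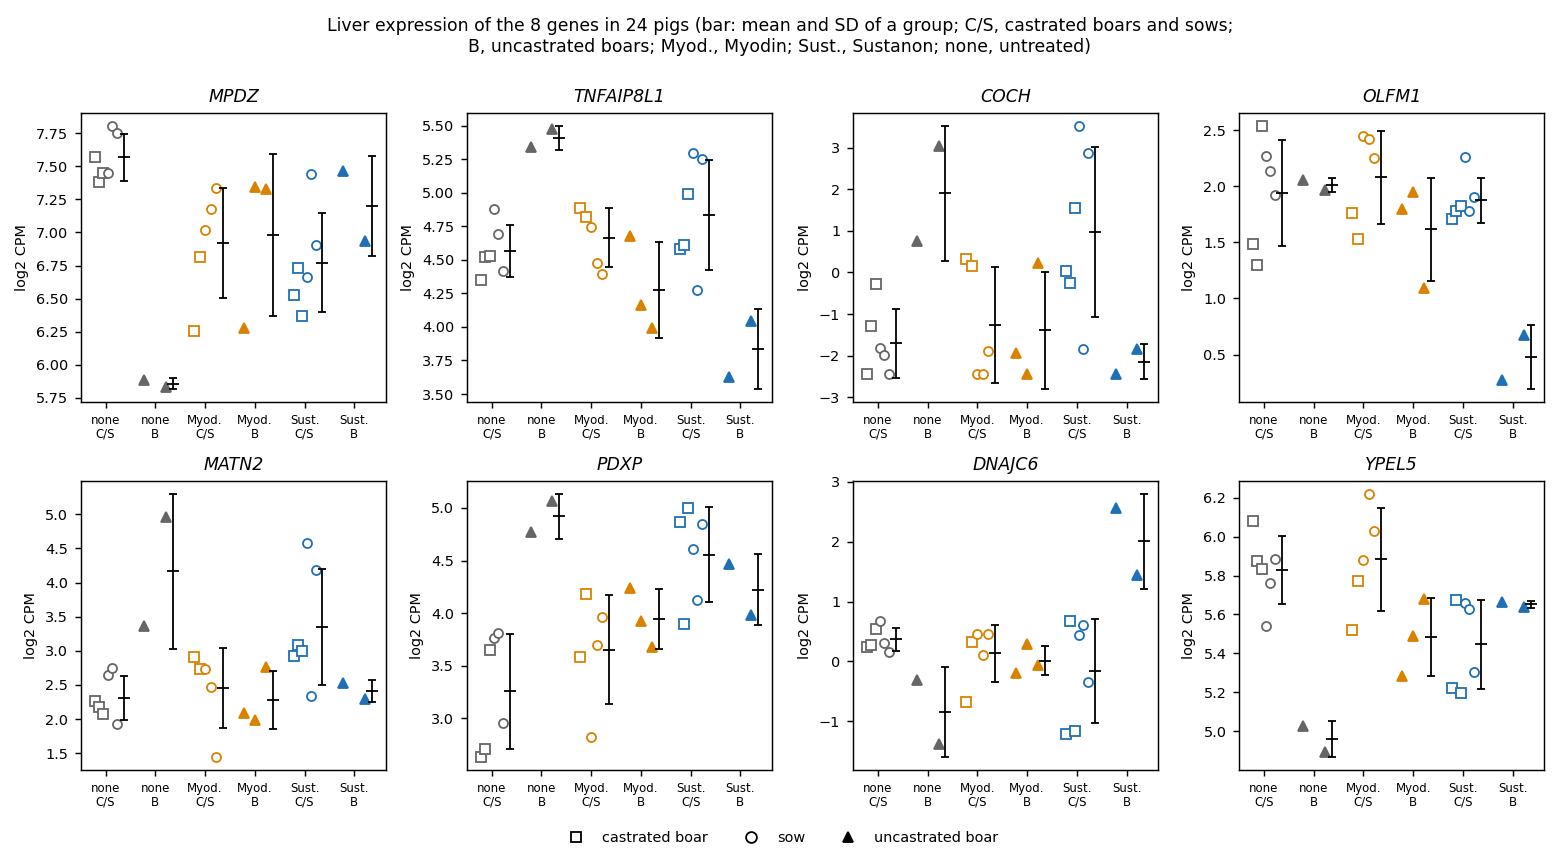
Level of each gene as log2 CPM (prior count 2) in the 24 pigs by treatment, with squares for castrated boars, circles for sows, triangles for uncastrated boars and bars for the mean and SD of a group. The 2 untreated boars are lowest for MPDZ and YPEL5 and highest for TNFAIP8L1, and the 2 Sustanon-treated boars are highest for DNAJC6 and lowest for OLFM1.

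Read across the genes, the unlike difference had 2 forms, and COCH, MATN2 and PDXP showed neither. In MPDZ, TNFAIP8L1 and YPEL5 the untreated boars lay outside all other 22 libraries, and in OLFM1 and DNAJC6 the Sustanon-treated boars did. For untreated boars this was 3 of the 8 genes, against 1.29% of all tested genes, and for Sustanon-treated boars 2 of the 8, against 1.87%. In COCH, MATN2 and PDXP neither was outside all others. Untreated boars lay outside the range of untreated pigs without testes in 7 of the 8 genes (19.3% of all genes), OLFM1 being the exception, and Sustanon-treated boars lay outside the range of Sustanon-treated pigs without testes in TNFAIP8L1, COCH, OLFM1 and DNAJC6 (8.3% of all genes), in COCH by no more than library size, since boar 20 and sow 5 had 1 count each. These counts use the libraries that chose the genes and support nothing. The 2 boars of a group also limit them, since 50.1% of all genes did not overlap between Sustanon-treated and untreated boars.

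The Myodin-treated libraries did not choose the genes, so the comparison of uncastrated boars with pigs without testes among them was not part of the choice, although the fit took its filter, normalization and spread from all 24 libraries. It asked whether boars and pigs without testes differed in these genes after another anabolic steroid. None of the 8 genes was a DEG (edgeR quasi-likelihood test, 3 against 5, adjusted p from 0.149 to 0.903), where 110 of the 8754 genes were (1.26%). Fitted on the 8 Myodin libraries alone, the 110 became 0. With a share of 1.26% over all genes, 0 calls among 8 genes say little. For COCH, which passed the filter only through other groups, the lack of a call carries no weight. DESeq2 and limma also called 0 of the 8. By edgeR, 1 of them, YPEL5, had an unadjusted p under 0.05, as had 1695 of the 8754 tested genes. The count over all genes rested on single libraries: it was 1 without boar 23, 34 without boar 24, 434 without boar 22, and 56, 31 and 50 without sows 10, 11 and 12. With any 1 library left out, 0 of the 8 genes were called.

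For YPEL5, boars minus pigs without testes was -0.41 ± 0.15 (SE, log2, 95% interval -0.71 to -0.11, adjusted p = 0.149 by edgeR), lower in 2 of the 3 boars than in any of the 5 pigs. OLFM1 had -0.48 ± 0.29 (-1.05 to 0.09) and TNFAIP8L1 had -0.37 ± 0.21 (-0.78 to 0.04). MPDZ had 0.10 ± 0.25 (-0.39 to 0.58), PDXP 0.24 ± 0.31 (-0.36 to 0.84), MATN2 -0.22 ± 0.45 (-1.11 to 0.66) and DNAJC6 -0.19 ± 0.49 (-1.16 to 0.77). For COCH, with 0 to 13 counts in these libraries, the value of -0.39 ± 1.42 left an interval from -3.16 to 2.39. With a library left out, TNFAIP8L1 ran from -0.60 to -0.23, OLFM1 from -0.65 to -0.25, MPDZ from -0.072 to 0.37, PDXP from 0.080 to 0.39, MATN2 from -0.52 to -0.077, DNAJC6 from -0.37 to -0.068 and COCH from -3.08 to 0.20, so single pigs set the size of these values and, in MPDZ and COCH, the sign. Against castrated boars only, OLFM1 and DNAJC6 changed sign. By mean, Myodin-treated sows were above the castrated boars in OLFM1 (5.00 and 2.95 CPM), YPEL5 (66.0 and 50.1) and MPDZ (145 and 94.4). The same held for DNAJC6 (1.09 and 0.75), and the other members went the other way. The median absolute difference of the 8 genes was 0.31, beside 0.24 over all tested genes. The groups overlapped in all 8 genes, and they did not overlap in 7.56% of all genes.

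**Figure D3:**
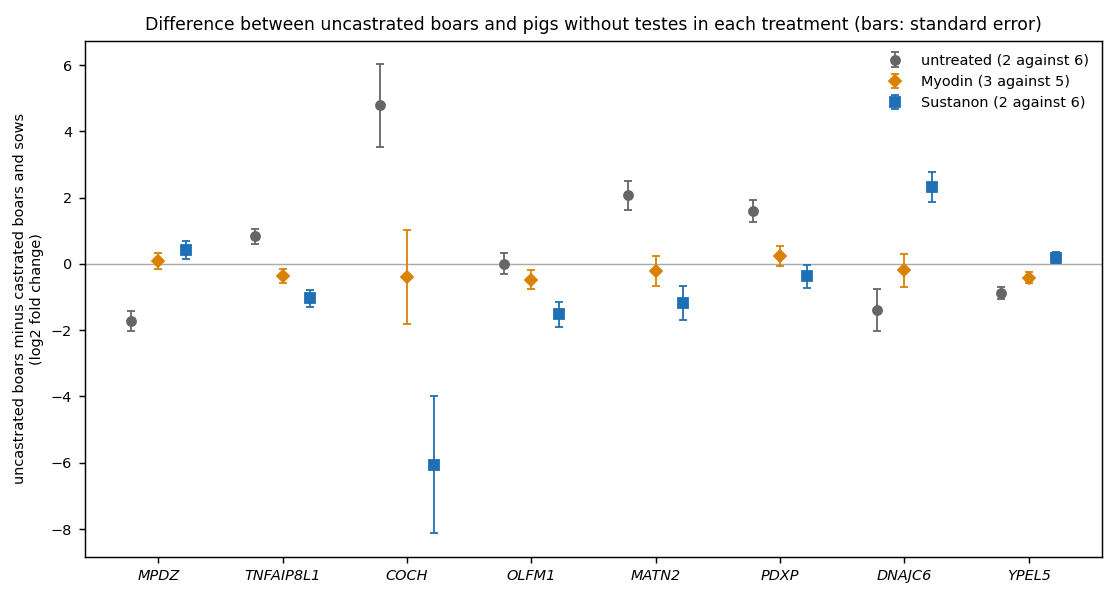
Log2 difference between uncastrated boars and castrated boars and sows within each treatment, by edgeR, with standard errors as bars. Only the Myodin values (diamonds, 3 against 5) come from libraries that did not choose the genes, and they lie between -0.48 and 0.24, while the untreated values (circles, 2 against 6) run from -1.72 to 4.78 and the Sustanon values (squares, 2 against 6) from -6.06 to 2.32.

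The Myodin-treated boars can also be set beside the untreated boars, which did choose the genes. In all 8 genes the 3 Myodin-treated boars lay on 1 side of the 2 untreated boars (20.4% of all genes did), above them in MPDZ, DNAJC6 and YPEL5 and below them in the other 5. The log2 values of Myodin against untreated boars were 1.21 for MPDZ, 0.98 for DNAJC6 and 0.53 for YPEL5, and -1.10 for TNFAIP8L1, -0.37 for OLFM1, -2.09 for MATN2, -0.97 for PDXP and -3.78 for COCH. Some of these rested on single boars: without boar 25 DNAJC6 was 2.001, without boar 27 DNAJC6 was 0.42, MATN2 -1.06 and COCH -2.13, and without boar 24 COCH was -6.48 and OLFM1 -0.14. The Myodin values share their control boars with the Sustanon values above, so likeness between the columns is no independent result, and over all genes 0 DEGs were called (797 genes at an unadjusted p under 0.05, 39 DEGs by DESeq2 and 3 by limma). Several cell type marker sums did not overlap between Myodin-treated and untreated boars either. The hepatocyte sum was 80526 to 120472 CPM with Myodin and 140805 to 140813 untreated. The stellate and stromal sum was 141 to 217 and 266 to 373 CPM, and the leukocyte sum 299 to 430 and 250 to 273. The mesothelial and muscle sums were lower with Myodin, and those of the other cell types overlapped. The part of these cell types in the differences between the boars was not tested. In pigs without testes, Myodin against untreated gave -0.61 for MPDZ, 1.38 for COCH and between -0.22 and 0.39 for the other 6. Without the 3 libraries with EIF1AY against the label, OLFM1 went from 0.12 to 0.44, PDXP from 0.39 to 0.56 and COCH to 2.13. The COCH value also rested on single pigs, at 0.80 without castrated boar 8, 0.85 without castrated boar 9 and 2.39 without castrated boar 15. Other alternatives took COCH from 0.15 to 2.13. With a library left out, OLFM1 ran from 0.008 to 0.25, PDXP from 0.24 to 0.54 and MATN2 from 0.09 to 0.39. DNAJC6 ran from -0.31 to -0.04, TNFAIP8L1 from 0.04 to 0.17 and YPEL5 from -0.03 to 0.15. MPDZ was the 1 member in which the 5 Myodin-treated pigs without testes did not overlap the 6 untreated ones, all 5 being lower (1.72% of all genes did not overlap). The bile duct markers, 3 of 5 in the tables, did not overlap between these groups either, with sums of 17.8 to 23.7 CPM with Myodin and 25.6 to 38.4 CPM untreated, and their part in the MPDZ difference was not tested.

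Sows and castrated boars had been pooled in choosing the genes, so the difference between them was not part of the rule. The Sustanon-treated libraries it draws on did choose the genes, and the values are therefore a description, without a test. Under Sustanon and Myodin together, MPDZ was 0.56 ± 0.18 higher in sows than in castrated boars (SE, log2), OLFM1 0.50 ± 0.22 higher and YPEL5 0.28 ± 0.12 higher. DNAJC6 had 0.62 ± 0.42, MATN2 0.23 ± 0.34, TNFAIP8L1 -0.021 ± 0.170, PDXP -0.23 ± 0.26 and COCH -1.21 ± 1.12. These 5 rested on single pigs. With a library left out they ran from 0.39 to 1.23 for DNAJC6, 0.007 to 0.44 for MATN2, -0.10 to 0.11 for TNFAIP8L1, -0.37 to -0.064 for PDXP and -2.17 to -0.75 for COCH. COCH, MATN2 and TNFAIP8L1 went opposite ways under Sustanon and Myodin. Mean COCH in sows and castrated boars was 6.17 and 1.40 CPM with Sustanon, and 0.028 and 0.995 CPM with Myodin. MATN2 had 15.6 and 7.86 CPM with Sustanon and 4.79 and 6.88 with Myodin. TNFAIP8L1 had 32.0 and 26.5 CPM with Sustanon and 23.1 and 28.7 with Myodin. By mean, the other members went the same way under both. Over all 8754 genes, 12 were DEGs in this comparison (0.137%). The count of 12 was 49 without castrated boar 2 and 6 without sow 10 or sow 11.

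**Figure D4:**
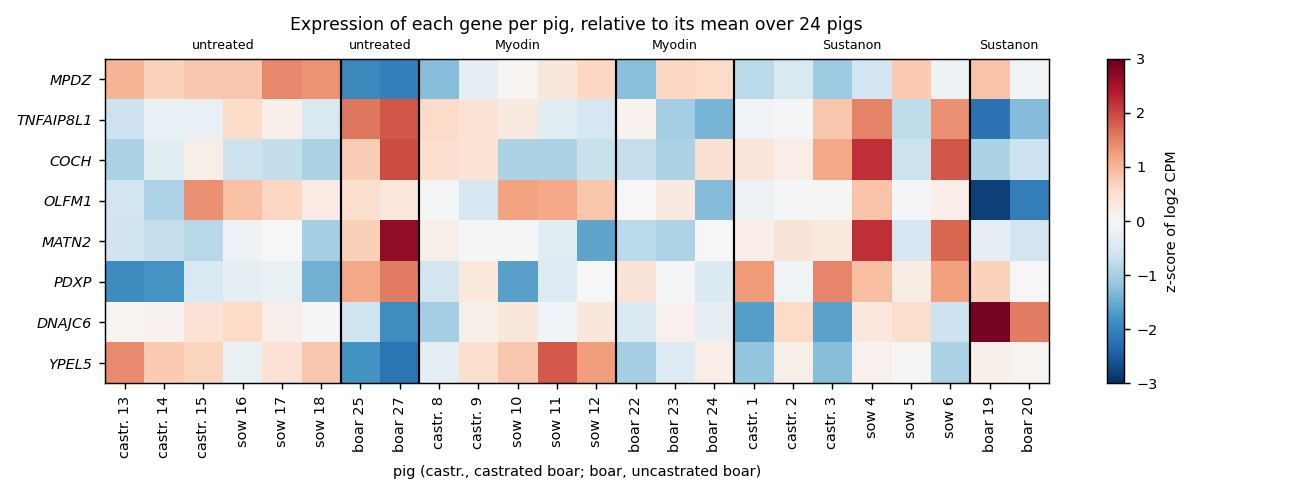
Level of each gene (rows) in each pig (columns) as the z-score of its log2 CPM over the 24 pigs, red above and blue below the gene's mean, with black lines between groups. The columns of untreated boars 25 and 27 are blue for MPDZ, DNAJC6 and YPEL5 and red for the other genes, faintly so for OLFM1, and sows 4 and 6 are red for COCH and MATN2.

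The 8 genes did not move as 1 group across the libraries. Over 24 libraries, Spearman's rho was 0.75 between COCH and MATN2, 0.69 between TNFAIP8L1 and MATN2 and 0.65 between MPDZ and YPEL5. It was -0.75 between PDXP and YPEL5, -0.68 between MPDZ and COCH and -0.62 between MPDZ and TNFAIP8L1. OLFM1 had rho of 0.44 with TNFAIP8L1 and between -0.04 and 0.10 with the other 6. Without the 4 boars of the Sustanon-treated and untreated groups, the value of COCH and MATN2 was 0.71, that of PDXP and YPEL5 -0.70, that of OLFM1 and TNFAIP8L1 0.23, that of OLFM1 and COCH -0.29 and that of OLFM1 and DNAJC6 0.41. Most of these libraries chose the genes, so the values are a description. The libraries also share the treatments and the normalization, and no member followed the total count of the library closely (rho between -0.22 and 0.30).

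The tested genes most like each member were named by Spearman's rho of log2 CPM over the 24 libraries. For YPEL5 they were ERBB3, a growth factor receptor, at 0.91 and OTUD5, a deubiquitinase, at 0.89. For MPDZ they were NHSL1 and PUM2 (0.82 and 0.81), for PDXP POLRMT, the mitochondrial RNA polymerase, and NUP188, a nuclear pore protein (0.81 and 0.81), and for TNFAIP8L1 GPAT3, an enzyme of glycerolipid synthesis, and ZNF791 (0.81 and 0.76). DNAJC6 was most like DPYS, an enzyme of pyrimidine breakdown, and SMAD3 (0.78 and 0.78), and OLFM1 most like ZNF250 and RASL12 (0.73 and 0.73). COCH was most like BNC1 and NPR1 (0.82 and 0.78), and MATN2 most like OMD, a matrix protein, and BNC1 (0.76 and 0.76). BNC1 was the 1 gene named for 2 members.

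BNC1, or basonuclin 1, is a transcription factor of stratified epithelia and of mesothelium, the cell layer that covers the liver surface. After this likeness was seen, a list of 7 mesothelial genes was written, and WT1, BNC1 and CALB2 of them are in the tables. Summed, these 3 genes had 39 and 52 counts in Sustanon-treated sows 4 and 6, 24 and 42 in untreated boars 25 and 27, and at most 20 in all other libraries, with CALB2 at 0 or 1 count throughout. The 4 libraries with the most mesothelial reads thus included the 3 with the most COCH and the 4 with the most MATN2. This rested in part on BNC1, itself picked for that likeness. BNC1 held 8 of the 24 counts in boar 25 and 3 of the 20 in castrated boar 1. Without BNC1, castrated boar 1 had more of these reads than boar 25. In the Sustanon-treated boars the sums were 3 and 8 counts, and with Myodin they were 2 to 20. Over the 24 libraries, rho of the summed level was 0.71 with PDXP, 0.62 with TNFAIP8L1, -0.69 with MPDZ, -0.68 with YPEL5, -0.39 with DNAJC6 and 0.12 with OLFM1. BNC1 had been picked for its likeness to COCH and MATN2, and WT1 alone had 0.75 with COCH and 0.57 with MATN2. The part of mesothelial tissue in these differences was not tested.

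**Figure D5:**
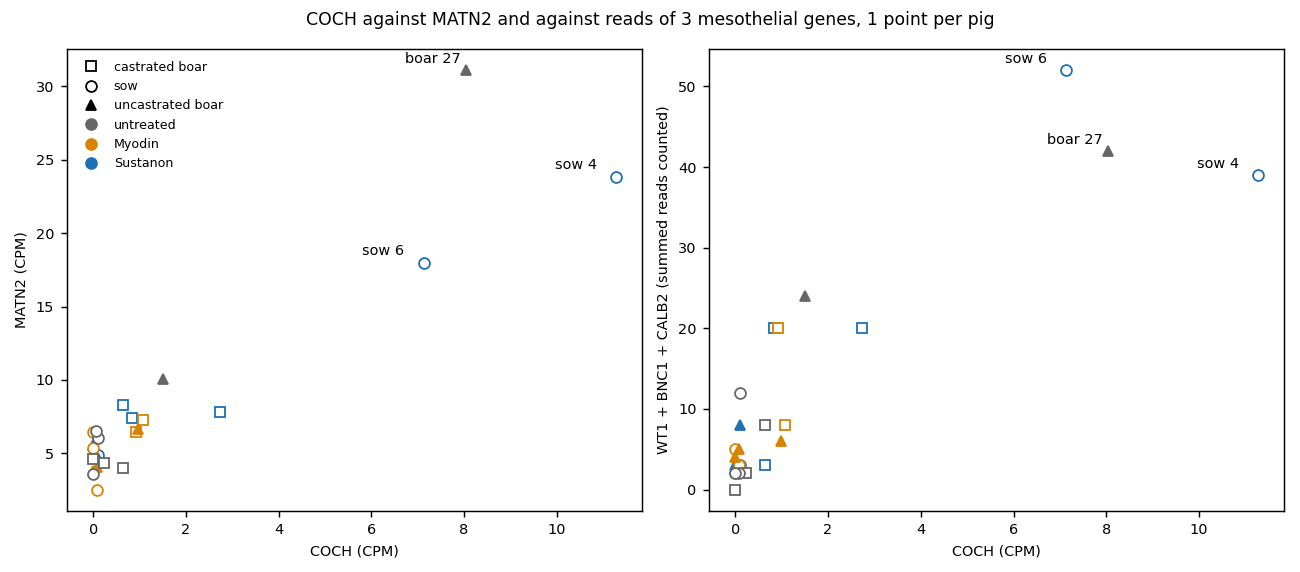
COCH in CPM against MATN2 in CPM (left) and against the summed counts of WT1, BNC1 and CALB2 (right), with 1 point for each of the 24 pigs. Untreated boar 27 and Sustanon-treated sows 4 and 6 lie apart from the rest in both panels, with COCH at 8.05, 11.3 and 7.13 CPM.

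Markers of other cell types were summed in the same way. The stellate and stromal markers, 4 of 7 in the tables, summed to 266 and 373 CPM in the untreated boars, 139 to 276 in untreated pigs without testes, 185 and 436 in Sustanon-treated boars and 242 to 359 in Sustanon-treated pigs without testes. With Myodin they summed to 141 to 217 CPM in boars and 137 to 333 in pigs without testes. The red blood cell markers, 4 of 5, summed to 170 to 939 CPM in the Myodin-treated boars and 538 to 2355 in the Myodin-treated pigs without testes, and the leukocyte markers, 3 of 7, to 299 to 430 and 217 to 424. Of all marker genes, CD2 of T cells was the only DEG in the Myodin comparison (1.26% of all tested genes were). It was 1.03 higher in boars (log2, adjusted p = 0.0497 by edgeR), close to the threshold. CD2 was not a DEG when the Myodin libraries were fitted alone. The neural and glial markers summed to at most 3.44 CPM in any library, and SOX10 and NCAM1 were at or near 0. The part of these cell types in the results was not tested.

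Genes that work with the 8 members were listed by function. None of them was a DEG in the Myodin comparison (1.26% of all tested genes were) or between sows and castrated boars (0.137%). None was in the difference between the Sustanon values either, where 4 of all tested genes were (0.0457%). With shares this low, 0 calls among so few genes say little. For MPDZ, 10 of 16 tight junction and polarity genes were tested. In the Myodin comparison 7 of them were below 0 and the list's median was -0.20, beside 0.00 over all tested genes. For TNFAIP8L1, the other 3 genes of its family were all above 0 there, with a median of 0.47, on the other side from TNFAIP8L1 itself. For DNAJC6, 11 of 15 clathrin genes were tested and their median was -0.02, with GAK, the auxilin found in most tissues, at -0.17 and HSPA8, which encodes HSC70, at 0.26. For PDXP, 6 of 14 genes of vitamin B6 and cofilin control had a median of 0.05. For COCH, MATN2 and OLFM1, 5 of 11 related matrix genes had a median of -0.16, and for YPEL5, 6 of 15 genes of its family and of the CTLH complex had a median of -0.18.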

How the data were processed

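The authors prepared stranded poly-A libraries, sequenced them in paired ends of 75 bases, removed adapters with Skewer and mapped the reads with STAR within docker4seq. The submitters' notes name STAR 2.5 and the build Sscrofa11.1, and the counting tool and annotation are not given in the sources used here. The authors deposited the number of reads per gene (counts, not normalized) and the same libraries as log2(TPM + 1), the log2 of a length-scaled share. The handling of reads that match several genes is not given either. Gene positions are those of RefSeq for Sscrofa11.1.

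The 8 genes, the gene lists and the tests were chosen with earlier results of these data known. In R 4.3.3, edgeR 4.0.16 was run on the counts of all 24 libraries in 6 groups (3 treatments, with or without testes), after filterByExpr (minimum count 10, 0.975 CPM in at least 2 libraries) and TMM normalization, with quasi-likelihood tests, two-sided, and Benjamini-Hochberg adjustment over 8754 genes. Sows and castrated boars were compared in a fit of 9 groups. DEGs had an adjusted p below 0.05 and a log2 fold change of 1 or more either way. Standard errors are the log2 fold change over the square root of F, and intervals are 95%. Those of fitted values use a normal approximation and are narrower than the F test itself would give. Those of pooled CPM are exact binomial intervals. CPM used TMM, and log2 CPM a prior count of 2. Named genes are the 8 members, for each the 2 tested genes with the highest Spearman's rho, the genes used to check labels and list genes that were DEGs of the Myodin comparison; the genes of the mesothelial list, the hepatocyte and neural markers, GAK and HSPA8 were named after their values were seen. The planned search for androgen receptor motifs was not run.

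Alternatives were RLE, DESeq2 1.42.0, no count filter, limma 3.58.1 on the deposited log2 values, no fold change threshold, leaving out the 3 libraries with EIF1AY against the label, other groupings of the pigs without testes, the Myodin-treated libraries alone, and leaving out each library in turn. Tested on simulated counts for the Myodin comparison, edgeR recovered 93.5% of 200 genes changed 4-fold among 8754 genes. Of its calls, 2.60% were false, and it made 0 calls in unchanged data. The changed genes were drawn from the more abundant ones, a set without COCH and DNAJC6. A 4-fold change is also larger than the Myodin value of any member, so the recovery does not apply to changes of their size.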

Additional observations from a re-analysis of the deposited data

Results flagged for a closer look

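OLFM1 in sow 4, in the group of 6 Sustanon-treated castrated boars and sows, was far from the others of its group: its log2 CPM of 2.26 (4.62 CPM) was the highest, and its gap to the next pig took 0.645 of the group's range, above the critical value of 0.625 in Dixon's test. In all, 24 groups were tested in this way, and chance flags about 1 in 20.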

How the results depend on the processing

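No paired analysis was possible because each pig has its own number and no number is shared between groups. None of the 8 genes became a DEG of the Myodin comparison under the alternatives run or with any library left out (0 to 0). With 1.26% of all genes called in the main fit, 0 calls among 8 genes say little. Counts of DEGs over all genes moved, and the cause was not tested. For boars against pigs without testes under Myodin, the 110 DEGs were 213 without the fold change threshold, 196 by DESeq2, 41 by limma, 73 without the 3 libraries with EIF1AY against the label, 68 with sows and castrated boars weighted equally, and 0 with the 8 Myodin libraries alone or against castrated boars only, both with fewer samples, and 1 to 434 with a library left out. For Sustanon in pigs without testes, 177 became 475 without the threshold and 73 without the 3 libraries (129 to 211 with a library left out). In uncastrated boars, 0 became 37 by DESeq2 and 10 by limma (0 to 20). For the difference between the Sustanon values, 4 became 33 by DESeq2, 7 by limma and 2 without the 3 libraries (0 to 6). For Myodin against untreated boars, 0 became 39 by DESeq2 and 3 by limma (0 to 118). In pigs without testes, 3 became 8 without the threshold, 26 by DESeq2 and 0 without the 3 libraries (2 to 8). Between sows and castrated boars, 12 became 23 without the threshold and 25 by DESeq2 (6 to 49). Some uncalled members changed direction. In pigs without testes, YPEL5 with Myodin, 0.065 higher, was -0.027 without sow 11 and -0.0090 without the 3 libraries, and OLFM1 with Sustanon was 0.010 without castrated boar 15, 0.18 by limma and 0.19 without the 3 libraries. COCH was 0.73 higher in Myodin-treated boars with equal weights, and 0.14 higher in sows by limma. Against castrated boars only, OLFM1 was 0.019 and DNAJC6 0.11 higher in Myodin-treated boars. With a library left out, MPDZ (-0.072 to 0.37) and COCH (-3.08 to 0.20) under Myodin and TNFAIP8L1 in sows (-0.10 to 0.11) also changed sign. Counts of 0 to 105 limit COCH and 2 to 67 limit DNAJC6, and each boar group of the Sustanon comparison holds 2 pigs.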
